A study of Homo sapiens with 4 samples.

Results

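GDF15, STC1, STC2, ADM, ADM2, INHBE, FGF21, VGF and VEGFA encode hormones and growth factors that cells release under stress. These 9 genes were taken by name from 24527 genes tested in A549, an established human lung adenocarcinoma cell line. RNA was sequenced from 2 libraries of control cells, whose labels name no treatment, and 2 of cells kept in glutamine-free medium with serum after washing. By the labels, deprived replicate 1 spent 24 hours and deprived replicate 2 spent 25 hours without glutamine. All cells were grown in DMEM with 10% serum before the change of medium, and no label describes a matching wash or medium change of the controls, so glutamine loss and that handling cannot be told apart. The labels do not say whether the libraries came from separate cultures, so the tests measure only the spread between these libraries, which may be technical. The comparison asks how gene expression differs after about a day without glutamine.

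Secreted stress factors report the state of a cell to other cells. GDF15 and FGF21 act on distant organs, GDF15 through the receptor GFRAL and RET, FGF21 through beta-klotho and FGF receptors. Adrenomedullins, stanniocalcins and VEGFA act mostly nearby. The transcription factor ATF4, made when amino acids run short, is a known activator of GDF15, FGF21, STC2, ADM2, INHBE and VEGFA. Hypoxia-inducible factors are known activators of VEGFA, ADM and STC1, and p53 of GDF15.

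Promoter sequence is shown for VGF, whose change was the largest of the 9, for ADM2, and for FGF21, which stayed near the detection limit. It covers the bases before the RefSeq transcription start (GRCh38.p14), written in the direction of the gene, without bases that lie in an annotated exon. Capitals mark matches to the motifs searched on both strands in the 250 bases before the start.
VGF: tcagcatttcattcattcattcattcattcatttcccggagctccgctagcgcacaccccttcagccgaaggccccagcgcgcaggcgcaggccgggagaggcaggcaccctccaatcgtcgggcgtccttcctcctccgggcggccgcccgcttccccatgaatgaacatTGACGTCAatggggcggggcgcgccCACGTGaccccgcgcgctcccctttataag
ADM2: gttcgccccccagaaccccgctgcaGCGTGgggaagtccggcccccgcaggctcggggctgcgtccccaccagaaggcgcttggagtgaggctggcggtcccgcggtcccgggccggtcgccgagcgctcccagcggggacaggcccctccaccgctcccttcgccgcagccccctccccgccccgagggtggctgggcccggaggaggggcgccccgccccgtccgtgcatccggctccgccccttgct
FGF21: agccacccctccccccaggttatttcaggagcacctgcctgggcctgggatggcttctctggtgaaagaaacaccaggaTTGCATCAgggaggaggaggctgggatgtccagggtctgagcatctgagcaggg
The VGF stretch is chr7:101165594-101165819 on the minus strand, the ADM2 stretch chr22:50481293-50481542 and the FGF21 stretch chr19:48755391-48755523, both on the plus strand. RefSeq promoters were held for 6 of the 9 genes (STC2, VGF, ADM, GDF15, FGF21 and ADM2). The core of the amino acid response element, TGATGNAA, was found in 3.14% of 35116 promoters and in 1 of the 6, FGF21, where it reads on the strand opposite the gene from 54 bases before the start. The palindromic cAMP response element TGACGTCA was found in 1.65% of promoters and in 1 of the 6, VGF, from 79 bases before the start. The hypoxia response cores ACGTG or GCGTG, which in VGF overlap each other, were found in 43.2% of promoters and in 4 of the 6, STC2, VGF, ADM and ADM2. A match describes letters only.

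Across the whole series, library totals ran from 101496318 to 123414592 counts. The quasi-likelihood test of edgeR called 6174 genes (25.2%) higher and 5982 (24.4%) lower without glutamine, 49.6% in all. A gene is called, and said to rise or fall, where its Benjamini-Hochberg adjusted p was under 0.05. With library size as the only scaling, 4182 were higher and 8563 lower, and the median change over all genes (log2) moved from -0.06 to -0.40, so all changes are relative to TMM scaling. All 5 epithelial markers were detected in every library and were lower in deprived cells, their summed level going from 7568 to 7678 CPM (counts scaled to a common effective library size) in the controls to 1730 to 2018 in the deprived libraries. Of 7 alveolar type II markers, 4 stayed under 1 CPM in every library, and SFTPA1 was at 0 in all of them. ABCA3 fell from 41.2 and 41.3 CPM in the controls to 27.7 and 28.6 in the deprived libraries, and NAPSA was also called lower. LAMP3 went the other way, from 0.42 and 0.0817 CPM in the controls to 2.58 and 3.03 in the deprived libraries. Fibroblast and endothelial markers stayed under 1 CPM each. The blood markers summed to 12.7 to 32.9 CPM in the controls and 0.804 to 0.921 in the deprived libraries, CD14 going from 13.2 and 12.4 to 0.498 and 0.525 CPM and HBB being at 11.6 CPM in control replicate 1 and 0.227 in control replicate 2. The part of these shifts in the results below was not tested, and in bulk RNA fewer cells of a type and less RNA per cell cannot be told apart.

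Of the 9 hormone and growth factor genes, all of which passed the filter on low counts, 8 rose in deprived cells, 0 fell and FGF21 was not called, against 25.2% of all genes called higher. The 9 genes were chosen with earlier results of these data known, so this contrast only describes them. The median log2 fold change was 3.37, against -0.06 over all genes. In 7 of them the rise was at least 2-fold, a size that 12.4% of all genes reached. For each of the 9, both deprived libraries lay above both controls, as they did for 36.1% of all genes tested. FGF21 passed the filter only through its deprived libraries, so its order is partly set by the filter and adds no evidence.

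**Figure D1:**
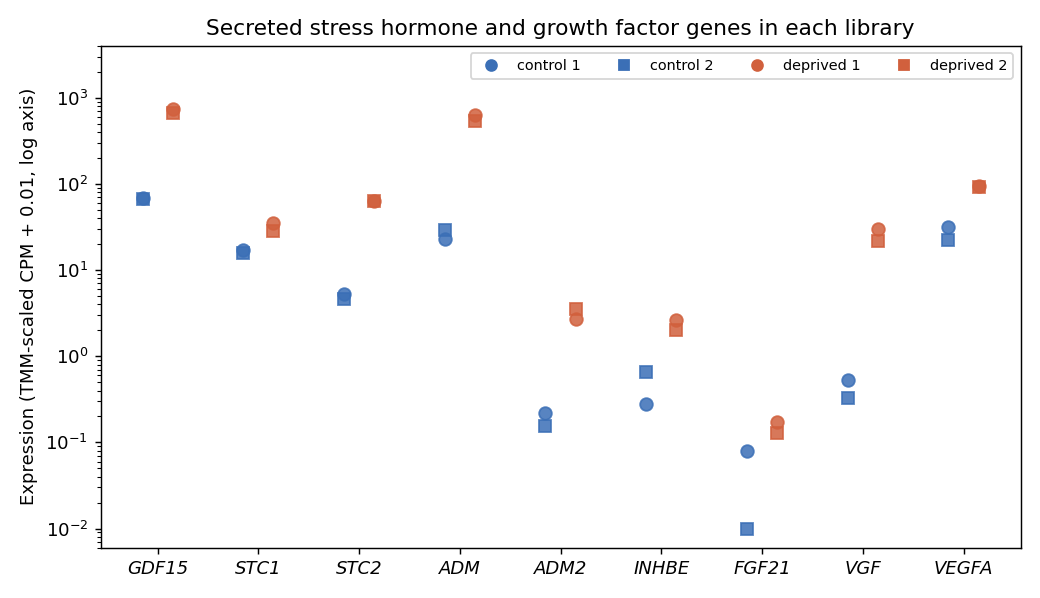
Expression of each gene in the 4 libraries, as TMM-scaled CPM plus 0.01 on a log axis (circles, replicate 1; squares, replicate 2; blue, control; orange, deprived). Deprived points lie above control points for each gene, from 659 and 749 CPM for GDF15 down to 0.12 and 0.163 CPM for FGF21, whose control replicate 2 is at 0.

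GDF15 (ENSG00000130513; chromosome 19, 18374731 to 18389176), a divergent TGF-beta family hormone that suppresses appetite, had the highest level of the 9, also per kilobase of transcript. It was at 68.7 and 67.4 CPM in the controls and at 749 and 659 CPM in the deprived libraries. The libraries of a group lay close together and the groups did not overlap. The mean went from 68.0 ± 0.907 to 704 ± 63.5 CPM (SD, n = 2), a log2 fold change of 3.37 ± 0.10 (SE; edgeR adjusted p = 1.19e-05). One 2-exon coding transcript, GDF15-201, held 99.0% to 99.8% of its counts. The microRNA gene MIR3189 lies within the gene on the same strand, shares no exon with it and had 87 to 140 counts in each library.

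ADM encodes adrenomedullin, a peptide that widens blood vessels. It was at 22.8 and 29.5 CPM in the controls and at 625 and 541 CPM in the deprived libraries, the second highest level. The lower deprived library was 18.3-fold above the higher control. The mean went from 26.1 ± 4.76 to 583 ± 59.2 CPM (chromosome 11, 10304680 to 10307397), a log2 fold change of 4.48 ± 0.16 (edgeR adjusted p = 1.59e-05). ADM2 encodes adrenomedullin 2, also called intermedin, which uses the same receptors. It was at 0.210 and 0.145 CPM in the controls and at 2.68 and 3.51 in the deprived libraries, which is 24 and 16 counts against 280 and 381. Its log2 fold change was 4.11 ± 0.33 (adjusted p = 0.000171; chromosome 22, 50481556 to 50486440). Both paralogs thus had higher RNA in deprived cells, at levels far apart.

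VGF is a granin-family precursor of secreted peptides, best known in neurons and endocrine cells. It was at 0.525 and 0.318 CPM in the controls and at 30.3 and 21.8 in the deprived libraries, which is 60 and 35 counts against 3170 and 2363. The lower deprived library was 41.5-fold above the higher control, the widest gap of the 9 genes. The log2 fold change was 5.94 ± 0.30 (61.6-fold; adjusted p = 3.55e-05; chromosome 7, 101162509 to 101165593). VGF-201 had 2332 and 2348 counts in the deprived libraries, whereas VGF-203 had 458 and 0 there and VGF-202 had 380 and 15. CHGA, a related granin that marks neuroendocrine cells, was at 0.306 and 0.690 CPM in the controls and at 1.09 and 1.28 in the deprived libraries, and was not called.

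The stanniocalcins are secreted glycoproteins that inhibit the pappalysin proteases. STC2 was at 5.25 and 4.57 CPM in the controls and at 62.6 and 63.7 in the deprived libraries (chromosome 5, 173314713 to 173329503). Its log2 fold change was 3.69 ± 0.10, with the deprived libraries nearly equal. STC1 was at 17.3 and 15.9 CPM in the controls and at 34.9 and 28.7 in the deprived libraries (chromosome 8, 23841915 to 23854807). STC1 rose by 0.94 ± 0.12 on the log2 scale (1.92-fold; adjusted p = 0.0011), the smallest change of the 8 called genes, and by 0.60 with library size as the only scaling. STC1 was the higher of the pair in control and STC2 in deprived cells per kilobase of transcript.

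**Figure D2:**
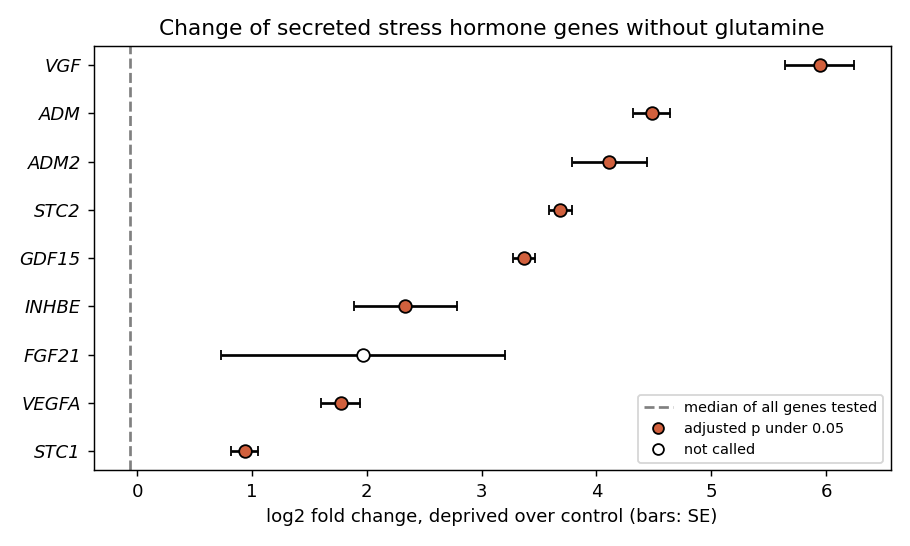
Change of each gene as log2 of deprived over control expression (points; bars, SE; filled, adjusted p under 0.05; dashed line, median of all genes tested). VGF is highest at 5.94 and STC1 lowest at 0.94, and FGF21, the open point, has the widest bar.

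INHBE encodes the subunit of activin E, a TGF-beta family factor made mainly by liver. It had 31 and 72 counts in the controls and 276 and 220 in the deprived libraries, or 0.271 and 0.653 against 2.64 and 2.03 CPM (chromosome 12, 57452323 to 57459280). The groups did not overlap, but the controls differed more than 2-fold from each other. INHBE rose by 2.34 ± 0.45 on the log2 scale (5.05-fold; adjusted p = 0.00663), by 1.82 without control replicate 1 and by 3.08 without control replicate 2. INHBE-201 had 0 and 60 counts in the controls and 250 and 203 in the deprived libraries, whereas INHBE-202 had 31, 5, 12 and 5.

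FGF21, a fasting and stress hormone also made mainly by liver, had 8 and 0 counts in the controls and 17 and 13 in the deprived libraries (chromosome 19, 48755559 to 48758333). The estimate of 1.97 ± 1.24 was not called by edgeR (adjusted p = 0.239), nor under any alternative that tested it (adjusted p = 0.0629 to 0.596). Without control replicate 1 the estimate was 6.93 and without control replicate 2 it was 0.99, so a change was not measurable at this depth. All counts of the deprived libraries fell on FGF21-201 and those of control replicate 1 on FGF21-202.

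VEGFA drives the growth of blood vessels. It was at 32.0 and 22.2 CPM in the controls and at 93.9 and 91.1 in the deprived libraries (chromosome 6, 43770184 to 43786487). The controls differed more from each other than the deprived libraries did, and the groups did not overlap. The log2 fold change was 1.77 ± 0.17 (adjusted p = 0.000352). Summing only transcripts of protein-coding type gave 2.27 ± 0.11. A retained-intron transcript of 12167 bases, VEGFA-212, held 62.6% and 58.2% of the counts in the controls and 40.2% and 41.1% in the deprived libraries. VEGFA-211, also of retained-intron type, went the other way, with 12.1% and 1.92% in the controls and 17.7% and 15.8% in the deprived libraries. The 6-exon coding transcript VEGFA-206 held 7.66% and 4.58% in the controls and 24.9% and 24.1% in the deprived libraries, which is 280 and 112 counts against 2445 and 2387. The 7-exon coding transcript VEGFA-205 varied between the controls (185 and 628 counts) and had 690 and 860 in the deprived libraries. An antisense gene that shares 188 exon bases with VEGFA had 0 counts. Of 32 annotated VEGFA transcripts, 25 were in the files.

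Of 8 ADM coding transcripts in the files, 5 held at least 10% of the counts in some library. ADM-203 had 62 and 51 counts in the controls, or 2.38% and 1.57% of the gene, and 10657 and 6250 in the deprived libraries, or 16.3% and 10.6%. ADM-201 held 30.2% and 26.4% in the controls, but 2.12% in deprived replicate 1 and 15.7% in deprived replicate 2. ADM-206 was the main transcript in all libraries, with 31.9% and 33.0% in the controls and 40.8% and 32.7% in the deprived libraries, where ADM-208 was nearly level with it in deprived replicate 2 (32.6%). These shares are estimates that divide reads among transcripts sharing exons, and the change in shares was not tested.

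**Figure D3:**
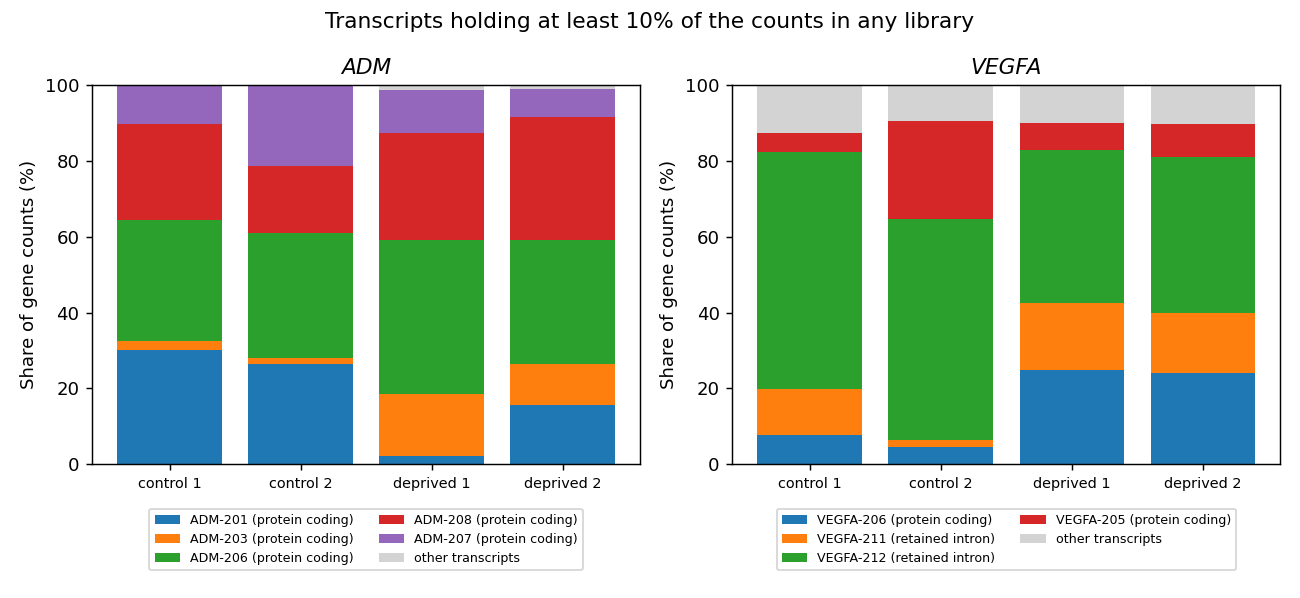
Share of each gene's counts (%) held by transcripts with at least 10% in any library, for ADM (left) and VEGFA (right), with 1 bar per library and all other transcripts in grey. VEGFA-212 covers 62.6% and 58.2% of the control bars against 40.2% and 41.1% of the deprived bars, and ADM-203 widens from 2.38% and 1.57% to 16.3% and 10.6%.

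Levels were compared between genes as CPM per kilobase of transcript, summed over the transcripts of a gene. In the controls GDF15 led with 58.3 ± 0.627, followed by ADM (14.7 ± 2.47), VEGFA (5.75 ± 2.16) and STC1 (4.31 ± 0.228). VEGFA and STC1 overlapped in range. STC2 was at 1.58 ± 0.105, INHBE at 0.296 ± 0.0559 and VGF at 0.164 ± 0.0557, and ADM2 and FGF21, at the bottom, overlapped. In the deprived libraries GDF15 (589 ± 52.8) and ADM (382 ± 53.6) stood far above VEGFA (26.4 ± 0.733) and STC2 (16.4 ± 0.485). VGF followed at 10.6 ± 3.10 and overlapped STC1 (8.24 ± 1.13), ADM2 (1.90 ± 1.80) overlapped INHBE (1.06 ± 0.218), and FGF21 was last (0.158 ± 0.034). The spread of ADM2 came with its short transcript ADM2-201, which had 156 counts in deprived replicate 2 and 0 in the other libraries.

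Of 24 receptors and coreceptors, 19 were tested, 4 rose and 5 fell, shares near the 25.2% and 24.4% of all genes, and their median was -0.32 on the log2 scale (with library size only, -0.65, 4 higher and 8 lower). Among the 4 that rose, KL had 4 and 0 counts in the controls and 29 and 29 in the deprived libraries. KL passed the filter on low counts only through the deprived libraries. GFRAL, the GDF15 receptor, had 0 counts in every library, as did RAMP1 and the adrenomedullin receptor subunit RAMP3. RAMP2, another adrenomedullin receptor subunit, had 7 counts in control replicate 1 and 0 in the other libraries. CALCRL, the partner of the RAMP subunits, had 0.383 to 0.871 CPM. The decoy receptor ACKR3, which binds adrenomedullin, rose from 1.12 ± 0.154 to 3.08 ± 0.249 CPM. KLB, which encodes beta-klotho, the FGF21 coreceptor, rose from 6.99 ± 0.311 to 17.9 ± 0.153 CPM (1.36 ± 0.11). The FGF receptor genes FGFR4 (-2.22 ± 0.11), FGFR3 (-3.23 ± 0.20), FGFR2 (-1.27 ± 0.33) and FGFR1 (-0.32 ± 0.09) fell, FGFR4 from 122 and 126 CPM to 29.2 and 24.0. The VEGF coreceptor NRP2 fell from 251 ± 7.42 to 49.0 ± 2.71 CPM. NRP1 was at 429 ± 1.81 and 417 ± 0.286 CPM and was not called (-0.04), but was called lower with library size only (-0.38). The VEGF receptor KDR had 0 counts in 3 libraries and 6 in deprived replicate 1. The activin receptor gene ACVR2A rose by 0.95 ± 0.11 and ACVR2B was at 27.2 ± 1.15 and 27.7 ± 2.36 CPM.

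Of 8 binding partners and antagonists, 3 rose and 3 fell, against 25.2% and 24.4% of all genes. PAPPA, the protease that stanniocalcins inhibit, rose with them, from 184 and 164 CPM to 636 and 698 (1.94 ± 0.10; adjusted p = 3.55e-05). FSTL3, which binds activins, rose from 89.7 ± 2.04 to 223 ± 31.4 CPM. TGFBR3, a coreceptor of inhibins, fell from 48.3 ± 2.49 to 13.5 ± 0.698 CPM. Called genes at low levels were also among them: PAPPA2 had 8 and 0 counts against 57 and 129, and IGFBP5 12 and 13 against 0 and 0. Each passed the filter on low counts only through the group where it was higher. The median of this list was 0.24, and -0.10 with library size only.

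Of 17 tested paralogs and granins, 3 rose and 2 fell (median 0.71), against 25.2% and 24.4% of all genes. With library size only, 3 were higher and 4 lower (median 0.38). VEGFB (-1.25 ± 0.14) fell while its relative PGF rose (1.75 ± 0.20), from 1.32 ± 0.0165 to 4.42 ± 0.405 CPM. Among the inhibin subunits INHBB fell from 10.9 ± 0.307 to 5.61 ± 0.537 CPM, and INHBA had 7 and 0 counts in the controls and 67 and 69 in the deprived libraries. INHBA passed the filter on low counts only through the deprived libraries. The granin-like gene SCG5 rose by 1.05 ± 0.18. Without control replicate 1, 6 of these genes rose and 3 fell.

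Of 10 tested enzymes that process or break down these precursors, 2 rose and 4 fell, against 25.2% and 24.4% of all genes (median 0.09; with library size only -0.24, 2 higher and 5 lower). FURIN, the convertase that cleaves many TGF-beta family precursors, rose from 65.3 ± 1.16 to 98.4 ± 10.4 CPM (0.59 ± 0.09), and PAM, which amidates peptides such as adrenomedullin, from 46.2 ± 3.41 to 75.9 ± 2.84 CPM (0.72 ± 0.08). The convertase genes PCSK5 (-1.68 ± 0.21), PCSK6 (-0.82 ± 0.11) and MBTPS1 (-0.52 ± 0.07) fell, as did the secretory kinase gene FAM20C (-2.17 ± 0.12). The neuroendocrine convertase genes were low, PCSK1 at 0.417 to 0.429 CPM in the controls and PCSK2 too low to test.

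Genes of 3 pathways known to act on these factors were read as lists, beside the 25.2% of all genes called higher and the 24.4% called lower. These lists, too, were chosen with earlier results of these data known. Of 15 ATF4 pathway genes, 14 rose and 1, DDIT4, fell (median 1.95, 1.61 with library size only), led by ATF3 (6.62 ± 0.11), DDIT3 (5.35 ± 0.11), PPP1R15A (5.25 ± 0.13) and ASNS (3.39 ± 0.09). Of 10 p53 targets, 9 rose and 0 fell (median 2.40; 8 rose with library size only), among them BTG2 (3.61 ± 0.08) and CDKN1A (3.56 ± 0.10). Of 18 HIF targets, 6 rose and 5 fell (median 0.14), against 3 and 8 with library size only (median -0.19) and 3 and 7 with upper-quartile factors. The list's steepest decreases were CA9, from 7.16 and 11.6 CPM to 0.536 and 0.249, and EGLN3, from 24.7 and 26.4 to 3.01 and 2.70. EGLN1 (1.21 ± 0.08) and KDM3A (1.23 ± 0.07) rose. ADM and VEGFA, themselves known HIF targets, also rose, and the part of HIF in these changes was not tested.

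**Figure D4:**
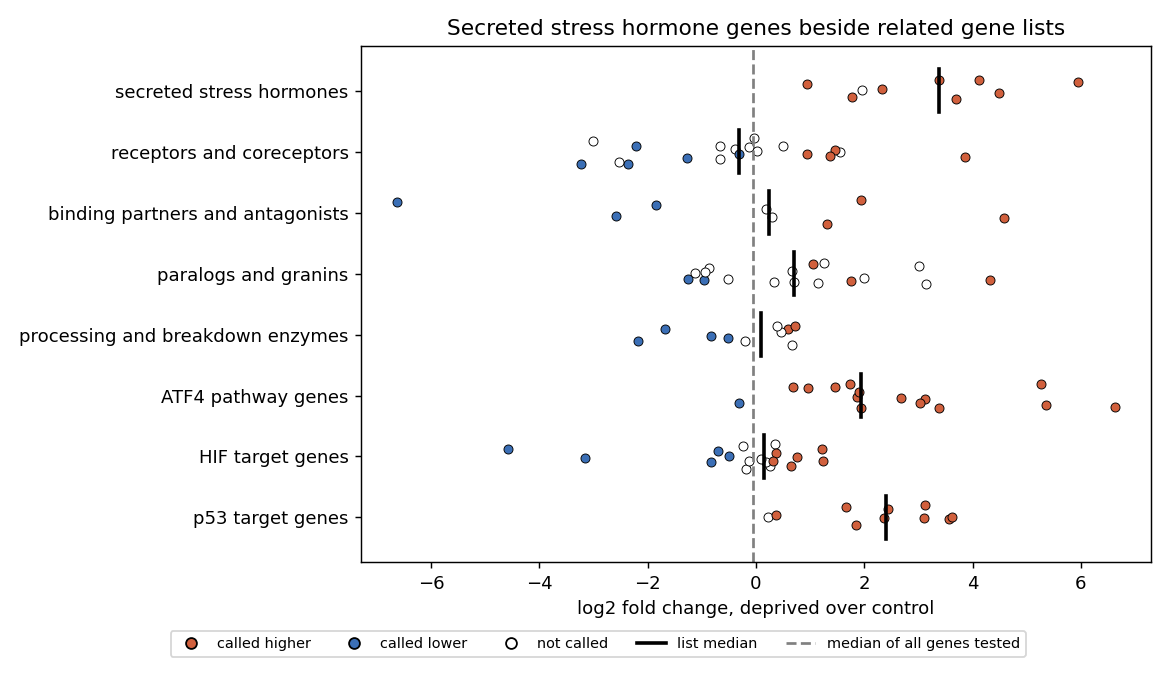
Change as log2 of deprived over control expression for the 9 secreted stress hormone genes and 7 related lists (points, tested genes; orange, called higher; blue, called lower; white, not called; black bar, list median; dashed line, median of all genes). The hormone genes, ATF4 pathway genes and p53 targets have medians of 3.37, 1.95 and 2.40, and the other lists scatter on both sides of 0.

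For the 8 of these genes with a mean of at least 1 CPM, which leaves out FGF21, the most alike protein-coding genes of at least 1 CPM were those with the smallest root mean square difference in centred log2 CPM over the 4 libraries. For GDF15 the closest was ASNS (0.0218), which rose to 554 CPM in deprived cells, followed by AMOTL2 (0.0518). For STC2 they were ZNF880 (0.0243) and RAB30, for ADM GPR3 (0.096) and IL1RL1, for ADM2 ESR1 (0.107) and PLA2G4C, for STC1 LIN7B (0.0104) and RNPS1, and for VEGFA INPP5D (0.0297) and NEFL. For VGF the nearest genes, LIMS3 (0.189) and TMEM236 (0.205), and for INHBE the nearest genes, ENSG00000268750 (0.14) and NRXN3 (0.233), lay farther away. With 4 libraries in 2 groups, this likeness mostly reflects a similar fold change.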

How the data were processed

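The authors deposited estimated counts per transcript, whole numbers under the name counts per the file headers. HISAT2 2.0.5, featureCounts 1.5.0-p3, DESeq2 1.20.0 and hg38 are named in the submitters' processing notes with no role. The tool that divided reads among transcripts is not given in the sources used here. Of 229420 transcripts, 205306 matched GENCODE release 29 (GRCh38) with 98.0% to 98.3% of all counts in a library; they were summed to genes, and the 24114 others were left out. Genes were filtered with filterByExpr, scaled with TMM (factors 0.862 to 1.15) and tested with edgeR 4.0.16 (glmQLFit, glmQLFTest, two-sided, Benjamini-Hochberg over all 24527 genes) in R 4.3.3. SE is the absolute log2 fold change over the square root of F. The procedure was tested on simulated data. That simulation changed few genes, as many up as down, so it does not test the choice of scaling.

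Replicates differed beyond sampling noise (chi-square per degree of freedom 31.0 and 43.6), so none was counted as a copy. The 9 genes, the lists and the tests were chosen with earlier results of these data known. Named from the lists were up to 4 genes with the smallest p and direct partners of the 9; other called genes and low partners were named after their values were seen. A list gene that this naming rule takes is not reported here. Alternatives were other scalings (RLE, upper-quartile, library size only), other filters, DESeq2 1.42.0, limma-voom (limma 3.58.1), each library left out, a replicate block and protein-coding transcripts only. The deposited table of long non-coding RNAs holds none of the 9 genes and was not used.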

Additional observations from a re-analysis of the deposited data

How the results depend on the processing

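The 8 calls among the 9 genes, and their direction, held under all 13 alternatives, and FGF21 was not called under any of the 12 that tested it; the filter of 50 counts removed it. Of the paralogs and granins, 5 were called in the report, but 8 with at least 50 counts in at least 2 libraries, 10 with DESeq2, 9 with limma-voom, 4 with protein-coding transcripts only and 6 to 9 with 1 library left out. With the replicate number as a block, 8 of the 9 genes and 10608 genes in all were called. Same-numbered libraries deviated from their group means with r = -0.0235 across genes. That showed no pairing by replicate number but, with only 2 libraries per group, cannot exclude it. Leaving out 1 library gave 9649 to 11688 calls in all. With 2 libraries per group, the spread is known poorly, and genes under about 1 CPM, above all FGF21, are limited by depth.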
